A study of Homo sapiens with 8 samples.

Results

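The 38 genes described here are ATF4, a stress-induced transcription factor, and genes of its amino acid stress programme: partner factors, upstream kinases, biosynthetic enzymes, transporters and tRNA synthetases. They were listed by symbol and looked up in the GENCODE 29 annotation, and every one of the 38 symbols matched a single row among the 60609 gene identifiers of the table. All 38 passed the filter on low counts that left 15751 tested genes. RNA was sequenced from HCT116, an established human colon cancer line, in 4 libraries of its GNAS R201C/+ derivative, labelled as treated by CRISPR-Cas9, and 4 libraries of the GNAS wt parental line, labelled as control. The GNAS product is the alpha subunit of the G protein that stimulates cyclic AMP synthesis, and R201C is a known activating substitution. Cells of both groups grew in DMEM/F12 medium with serum and antibiotics, and the labels name no stress treatment, so the values describe the programme under routine culture. The labels do not say whether the derivative is a single clone or whether replicates were separate cultures, so a difference due to the edit and a difference between clones cannot be told apart, and the p-values rest on library-to-library spread, which may be technical.

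When amino acids run short, when unfolded proteins build up in the endoplasmic reticulum or when heme is lacking, sensor kinases phosphorylate the initiation factor eIF2alpha. General translation then drops, while the ATF4 mRNA is translated better. ATF4 pairs with C/EBP family proteins and activates genes that make, import and charge amino acids, along with feedback genes such as TRIB3. Much of ATF4 control is therefore translational, and mRNA levels show only the transcript side of it.

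Libraries held 45796887 to 48768360 counts in the GNAS R201C/+ group and 42584988 to 50986733 in the parental group, and mitochondrial genes took 5.34% to 5.82% of counts. GNAS itself was at 711 ± 13.2 CPM in GNAS R201C/+ and 677 ± 16.8 CPM in parental libraries (CPM, the count scaled to library size; SD, n = 4 each). It was called higher, with overlap between the groups (log2 fold change 0.07, edgeR adjusted p = 0.00412), which says nothing about the allele. Of 12 markers chosen for a colon epithelial line, 8 were tested, of which 5 were called higher and 2 lower. Over all tested genes 24.1% were called higher and 24% lower. CDH1 was at 84.5 against 67.4 CPM, KRT8 at 2040 against 1710 CPM and ELF3 at 34.7 against 41.3 CPM in GNAS R201C/+ against parental libraries. CDX2, at 19.2 CPM in GNAS R201C/+ and 20.5 CPM in parental libraries, was called lower, a call lost in 8 alternatives, DESeq2 among them (adjusted p = 0.0943). Summed, these markers held 4660 to 4730 CPM in GNAS R201C/+ and 4070 to 4240 CPM in parental libraries, and the part of this shift in the results was not tested. CDX1 was listed at 0, and LGALS4, CEACAM5 and VIL1 were near 0. Leukocyte markers summed to 1.53 to 2.21 CPM in GNAS R201C/+ and 1.55 to 1.95 CPM in parental libraries. ITGAM and CD8A averaged below 1 CPM in each group, and PTPRC was listed at 0. Fibroblast markers, nearly all COL1A1 with a little PDGFRB, summed to 29.6 to 31.7 CPM in GNAS R201C/+ and 28.7 to 32.4 CPM in parental libraries, with PDGFRA, DCN and LUM listed at 0. Endothelial markers, mainly ESAM with some VWF, summed to 6.35 to 7.01 CPM in GNAS R201C/+ and 6.9 to 7.36 CPM in parental libraries. Only 3 of 12 leukocyte, 2 of 10 fibroblast and 2 of 10 endothelial markers had enough counts to be tested. None of these tested markers passed with edgeR or DESeq2, or had an unadjusted p under 0.05.

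The comparison asked how the GNAS mutation goes with the transcript levels of the ATF4 programme. Most of its genes were lower: 27 of the 38 fell in GNAS R201C/+ libraries, 4 rose and 7 did not pass (edgeR quasi-likelihood test, adjusted p under 0.05 over all tested genes). Every one of the 7 tRNA synthetases fell, as did 6 of 7 amino acid transporters and 5 of 7 biosynthetic enzymes. The feedback and secreted targets TRIB3, CHAC1 and STC2 fell too. The genes that rose were ATF3, ATF5 and the kinase genes EIF2AK1 and EIF2AK3. Across all tested genes the same rule called 48.1%, with 24.1% higher and 24% lower. Among the 38 genes 10.5% were higher and 71.1% lower. The 38 genes were chosen with earlier results of these data known, so these shares are no independent evidence. The median log2 fold change was -0.17 over the 38 genes and 0.002 over all tested genes. In 31 of the 38 genes the libraries of the groups did not overlap, 5 with GNAS R201C/+ libraries above and 26 with them below. The same separation was seen in 41.6% of all tested genes, 20.7% above and 20.8% below. With a filter of at least 1 CPM in at least 4 libraries, 7216 of 12764 genes were called, 3595 higher and 3621 lower. The part of read depth in the shares of the 38 genes was not tested.

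The changes were small. The median size over the 38 genes was 0.17 on the log2 scale, against 0.12 over all tested genes. ASNS and SLC7A11 differed by at least 1.5-fold and no gene of the set by 2-fold. Over all tested genes 5.7% differed by at least 1.5-fold, so changes of that size were not more common in the set. Summed over the 38 genes, the level was 6890 to 6990 CPM in GNAS R201C/+ libraries and 7880 to 7990 CPM in parental libraries. These are shares of each library's RNA, and in bulk samples fewer cells of a kind and less RNA per cell cannot be told apart.

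**Figure D1:**
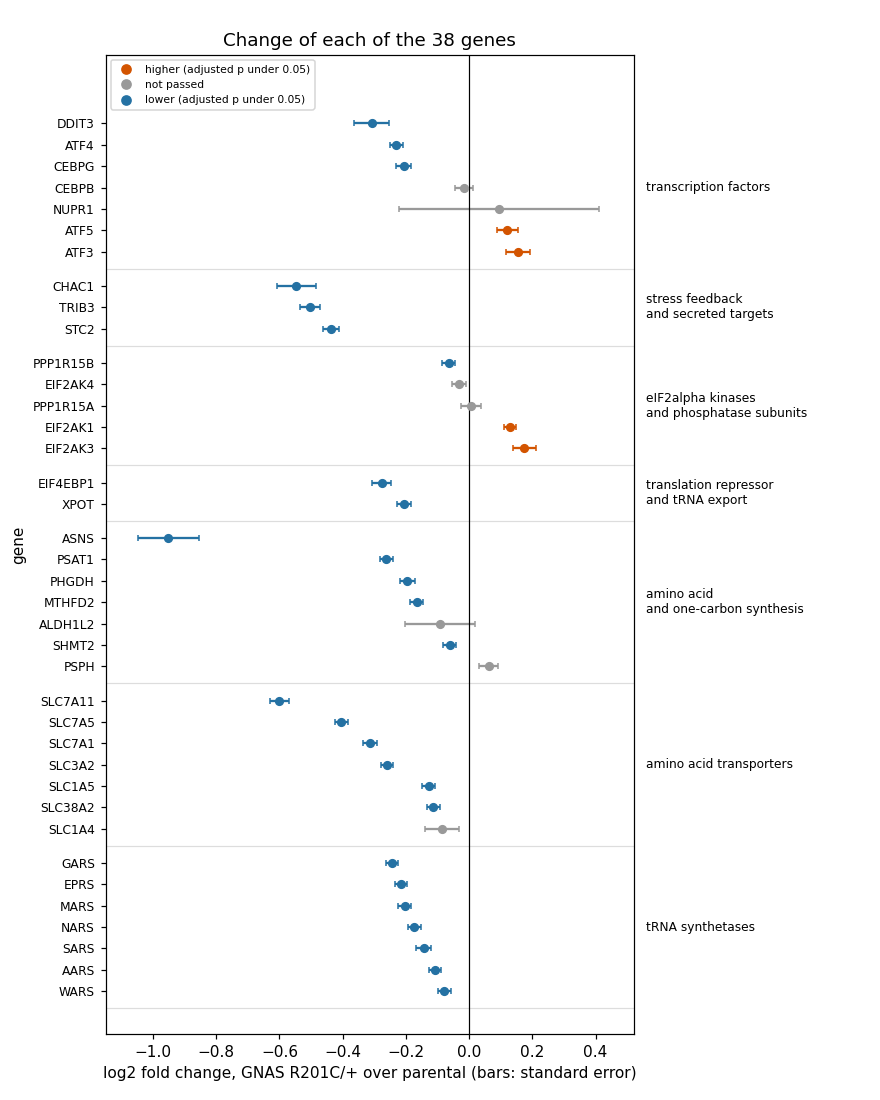
Log2 fold change of each of the 38 genes, GNAS R201C/+ over parental, with standard error bars, grouped by role (x axis, log2 fold change; y axis, gene; colours mark genes higher, not passed and lower). All 7 tRNA synthetases and all 3 feedback and secreted targets lie left of 0, and the 2 kinase genes EIF2AK1 and EIF2AK3 lie right of it.

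Among the transcription factors, ATF4 and its partner gene CEBPG fell, as did DDIT3, while ATF3 and ATF5 rose. ATF4 (ENSG00000128272.14, GRCh38 chromosome 22, 39519695 to 39522685, plus strand) was at 335, 340, 337 and 340 CPM in GNAS R201C/+ libraries, against 408, 394, 394 and 391 CPM in parental libraries. Mean levels were 338 ± 2.33 CPM in GNAS R201C/+ and 397 ± 7.76 CPM in parental libraries, a log2 fold change of -0.23 (standard error 0.02, edgeR adjusted p = 3.95e-13). The lowest parental library stood well above the highest GNAS R201C/+ library. CEBPG, which encodes a C/EBP protein that dimerises with ATF4, had 83.8, 81.3, 82.4 and 77.9 CPM in GNAS R201C/+ libraries, against 93.1, 93.9, 92.8 and 95.9 CPM in parental libraries (log2 fold change -0.21, standard error 0.02, edgeR adjusted p = 2.37e-09). DDIT3, which encodes the pro-apoptotic factor CHOP, had 8.89, 8.57, 9.27 and 9.86 CPM in GNAS R201C/+ libraries, against 11, 11.2, 11.2 and 12 CPM in parental libraries (log2 fold change -0.31, standard error 0.05, edgeR adjusted p = 1.01e-05). Libraries of the groups did not overlap for either gene. DDIT3 shares 355 exonic bases with MARS on the opposite strand. The library kit marks strand, but whether the counting used it is not given in the sources used here, so part of the DDIT3 reads may belong to MARS.

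ATF3, a stress-induced AP-1 and ATF family factor, averaged 22.5 ± 0.545 CPM in GNAS R201C/+ and 20.2 ± 0.344 CPM in parental libraries (log2 fold change 0.16, edgeR adjusted p = 7.20e-04). ATF5, another factor whose mRNA is translated under stress, averaged 33.8 ± 1.21 CPM in GNAS R201C/+ and 31.1 ± 1.07 CPM in parental libraries (log2 fold change 0.12, edgeR adjusted p = 0.00328). Groups were separate for both, though for ATF5 the nearest libraries were 32.8 CPM in GNAS R201C/+ and 32.7 CPM in parental. ATF5 shares 626 exonic bases with NUP62 on the opposite strand, a gene at 124 CPM in GNAS R201C/+ and 130 CPM in parental libraries. CEBPB, a C/EBP factor and partner of ATF4, was at 63.6 ± 2.54 CPM in GNAS R201C/+ and 64.3 ± 2.35 CPM in parental libraries and did not pass (edgeR adjusted p = 0.697). NUPR1, a small stress-induced chromatin protein gene, was barely counted, at 0.285 ± 0.0820 CPM in GNAS R201C/+ and 0.267 ± 0.123 CPM in parental libraries (edgeR adjusted p = 0.840), a depth at which only large differences could be seen.

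The 3 feedback and secreted targets all fell, with log2 fold changes larger in size than that of ATF4, a difference that was not tested. TRIB3 (ENSG00000101255.11, chromosome 20, 362835 to 397559, plus strand), a pseudokinase that restrains ATF4 and DDIT3, had 32.3, 33.1, 33.8 and 35.5 CPM in GNAS R201C/+ libraries, against 49.1, 46.6, 48.1 and 47.3 CPM in parental libraries. It was 1.42-fold lower, with a log2 fold change of -0.50 (standard error 0.03, edgeR adjusted p = 4.68e-17). CHAC1 (ENSG00000128965.13, chromosome 15, 40952962 to 40956519, plus strand), an enzyme that degrades glutathione, had 6, 5.72, 5.82 and 6.5 CPM in GNAS R201C/+ libraries, against 8.62, 8.92, 9.03 and 8.61 CPM in parental libraries. The fall was 1.46-fold, with a log2 fold change of -0.55 (standard error 0.06, edgeR adjusted p = 8.67e-10). STC2, a secreted glycoprotein gene on chromosome 5, had 77.9, 75.5, 78.5 and 74.9 CPM in GNAS R201C/+ libraries, against 101, 104, 104 and 107 CPM in parental libraries (log2 fold change -0.44, standard error 0.02, edgeR adjusted p = 6.66e-19). For each of these genes all 4 GNAS R201C/+ libraries were below all 4 parental libraries. None of the 3 shares exonic bases with another annotated gene.

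Of the 5 genes of the set that act on eIF2alpha phosphorylation, the kinase genes EIF2AK1 and EIF2AK3 rose, PPP1R15B was called lower and 2 did not pass. EIF2AK3, the endoplasmic reticulum kinase PERK, had 24.1, 24, 24.6 and 25.6 CPM in GNAS R201C/+ libraries, against 22.1, 21.5, 21.6 and 22 CPM in parental libraries (log2 fold change 0.17, standard error 0.04, edgeR adjusted p = 1.33e-04). EIF2AK1, the heme-regulated kinase HRI, had 260, 262, 262 and 263 CPM in GNAS R201C/+ libraries, against 243, 239, 239 and 237 CPM in parental libraries (log2 fold change 0.13, standard error 0.02, edgeR adjusted p = 3.90e-07). Both kinase genes were thus higher in every GNAS R201C/+ library. EIF2AK4, the amino acid sensing kinase GCN2, had 122, 121, 126 and 121 CPM in GNAS R201C/+ libraries, against 127, 128, 123 and 124 CPM in parental libraries, with overlap, and did not pass (log2 fold change -0.03, edgeR adjusted p = 0.224). The kinase gene EIF2AK2, outside the set, was at 123 CPM in GNAS R201C/+ and 120 CPM in parental libraries and did not pass (edgeR adjusted p = 0.29). PPP1R15A, the stress-induced subunit that directs a phosphatase to eIF2alpha, was at 38.2 ± 1.13 CPM in GNAS R201C/+ and 38.1 ± 1.19 CPM in parental libraries (edgeR adjusted p = 0.887). Its constitutive relative PPP1R15B averaged 147 ± 2.92 CPM in GNAS R201C/+ and 153 ± 4.06 CPM in parental libraries, with overlap, and was called lower by a log2 change of -0.07 (edgeR adjusted p = 0.0133). That call was lost without GNAS R201C/+ replicate 3 (edgeR adjusted p = 0.0514), without GNAS R201C/+ replicate 4 (0.0555) and without parental replicate 2 (0.0782). EIF2AK3 shares 781 exonic bases on the opposite strand with AC104134.1, a gene at 0.0319 CPM in GNAS R201C/+ and 0.0369 CPM in parental libraries. EIF2AK1 shares 532 exonic bases with AIMP2 on the opposite strand, whose own level, 47.7 CPM in GNAS R201C/+ against 47.5 CPM in parental libraries, did not pass.

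EIF4EBP1 and XPOT, which act on translation and tRNA supply, both fell. EIF4EBP1, the cap-dependent translation repressor, had 54.6, 55.4, 57 and 58.6 CPM in GNAS R201C/+ libraries, against 72, 65, 67.7 and 68.6 CPM in parental libraries (log2 fold change -0.28, standard error 0.03, edgeR adjusted p = 2.46e-10). XPOT, the exporter of tRNA from the nucleus, had 214, 215, 202 and 200 CPM in GNAS R201C/+ libraries, against 234, 243, 240 and 243 CPM in parental libraries (log2 fold change -0.21, standard error 0.02, edgeR adjusted p = 5.65e-10). Neither gene overlapped between the groups.

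**Figure D2:**
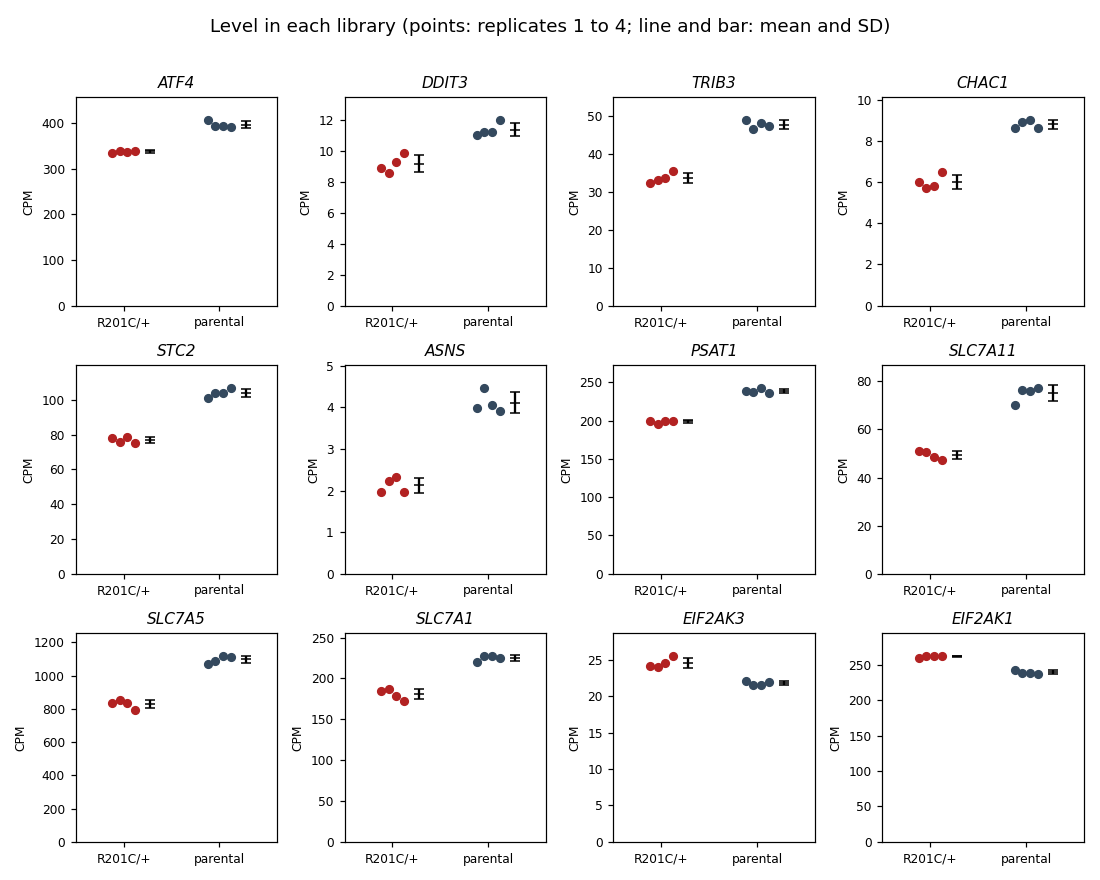
CPM in each of the 8 libraries for 12 genes, with GNAS R201C/+ libraries (red) left of parental libraries (dark) and mean ± SD beside them; each y axis starts at 0. For example, TRIB3 lies at 32.3 to 35.5 CPM in GNAS R201C/+ and 46.6 to 49.1 CPM in parental libraries, and EIF2AK3 is the reverse in direction.

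Of 7 enzymes of amino acid and one-carbon synthesis 5 fell, with the largest change in ASNS. Asparagine synthetase ASNS (ENSG00000070669.17, chromosome 7, 97852118 to 97872542, minus strand) had 1.97, 2.24, 2.33 and 1.97 CPM in GNAS R201C/+ libraries, against 3.98, 4.48, 4.06 and 3.92 CPM in parental libraries. It was 1.93-fold lower, the largest change of the 38 genes, with a log2 fold change of -0.95 (standard error 0.10, edgeR adjusted p = 4.71e-11). The groups were far apart, but the level rests on few reads, 92 in GNAS R201C/+ replicate 1. Of its 4455 annotated exonic bases 1985, and 84.3% of its longest transcript, also lie in AC079781.5 on the same strand. AC079781.5 was itself at 0.489 CPM in GNAS R201C/+ and 0.583 CPM in parental libraries and did not pass. How the counting treated reads in shared bases is not given in the sources used here, and their part in the ASNS level was not tested.

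The serine pathway enzymes were counted far more deeply. PSAT1 (ENSG00000135069.14, chromosome 9, 78297143 to 78330093, plus strand), the aminotransferase of serine synthesis, had 200, 196, 200 and 199 CPM in GNAS R201C/+ libraries, against 238, 237, 243 and 236 CPM in parental libraries (log2 fold change -0.26, standard error 0.02, edgeR adjusted p = 1.29e-14). PHGDH, which catalyses the first step of that pathway, averaged 116 ± 1.92 CPM in GNAS R201C/+ and 133 ± 3.53 CPM in parental libraries (log2 fold change -0.20, edgeR adjusted p = 1.65e-09). PSPH, the phosphatase of the last step, did not pass, at 44.3 ± 0.937 CPM in GNAS R201C/+ and 42.4 ± 0.406 CPM in parental libraries (log2 fold change 0.06, edgeR adjusted p = 0.0775). Of the 3 enzymes of serine synthesis, PSAT1 and PHGDH thus fell and PSPH was not called. The pseudogene PSPHP1 held reads equal to 7.83% of those of PSPH, so PSPH is uncertain. MTHFD2, the mitochondrial folate dehydrogenase, averaged 465 ± 4.71 CPM in GNAS R201C/+ and 522 ± 10.8 CPM in parental libraries (log2 fold change -0.17, edgeR adjusted p = 2.31e-09). SHMT2, the mitochondrial enzyme that splits serine into glycine and a folate carbon unit, averaged 284 ± 4.36 CPM in GNAS R201C/+ and 297 ± 6.17 CPM in parental libraries, a small fall of 0.06 on the log2 scale (edgeR adjusted p = 0.00957). ALDH1L2, a mitochondrial folate enzyme, was at 1.94 ± 0.103 CPM in GNAS R201C/+ and 2.07 ± 0.156 CPM in parental libraries and did not pass (edgeR adjusted p = 0.532).

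Of 7 amino acid transporters 6 fell, with the largest change in SLC7A11. SLC7A11 (ENSG00000151012.13, chromosome 4, 138164097 to 138242349, minus strand), the cystine importer xCT, had 51, 50.7, 48.6 and 47.4 CPM in GNAS R201C/+ libraries, against 70, 76.5, 76.1 and 77.4 CPM in parental libraries. It was 1.52-fold lower, with a log2 fold change of -0.60 (standard error 0.03, edgeR adjusted p = 1.34e-18). The antisense gene SLC7A11-AS1, with 865 shared exonic bases, was at 0.0528 CPM in GNAS R201C/+ and 0.0868 CPM in parental libraries. SLC7A5 (ENSG00000103257.9, chromosome 16, 87830023 to 87869488, minus strand), the leucine and large neutral amino acid transporter LAT1, had 836, 851, 837 and 792 CPM in GNAS R201C/+ libraries, against 1070, 1090, 1120 and 1110 CPM in parental libraries. The fall was 1.32-fold, with a log2 fold change of -0.40 (standard error 0.02, edgeR adjusted p = 1.45e-19). SLC3A2, the heavy chain that both SLC7A11 and SLC7A5 need at the cell surface, had 323, 324, 317 and 312 CPM in GNAS R201C/+ libraries, against 378, 377, 385 and 386 CPM in parental libraries (log2 fold change -0.26, standard error 0.02, edgeR adjusted p = 1.33e-14). The heavy chain and both light chains were thus lower together, with no overlap between groups. SLC7A1, the cationic amino acid transporter that carries arginine, had 185, 187, 179 and 173 CPM in GNAS R201C/+ libraries, against 220, 228, 228 and 225 CPM in parental libraries (log2 fold change -0.32, standard error 0.02, edgeR adjusted p = 2.15e-15).

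Among these 7 transporters, SLC1A5, SLC38A2 and SLC1A4 had smaller fold changes. SLC1A5, the glutamine transporter ASCT2, averaged 333 ± 2.88 CPM in GNAS R201C/+ and 364 ± 9.15 CPM in parental libraries (log2 fold change -0.13, edgeR adjusted p = 9.31e-07). SLC38A2, the amino acid responsive transporter SNAT2, averaged 851 ± 11.2 CPM in GNAS R201C/+ and 921 ± 19.7 CPM in parental libraries (log2 fold change -0.11, edgeR adjusted p = 6.98e-06). SLC1A4, a serine and alanine transporter, was at 11.2 ± 0.661 CPM in GNAS R201C/+ and 11.9 ± 0.835 CPM in parental libraries and did not pass (edgeR adjusted p = 0.204). Summed, the 7 transporters held 2530 to 2610 CPM in GNAS R201C/+ and 3010 to 3130 CPM in parental libraries.

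All 7 tRNA synthetases, which attach amino acids to their tRNAs, fell by a narrow range, from -0.24 for GARS to -0.08 for WARS on the log2 scale. GARS, for glycine, had 232, 233, 233 and 227 CPM in GNAS R201C/+ libraries, against 275, 270, 276 and 275 CPM in parental libraries (standard error 0.02, edgeR adjusted p = 6.83e-14). EPRS, for glutamate and proline, had 336, 338, 329 and 334 CPM in GNAS R201C/+ libraries, against 385, 389, 392 and 388 CPM in parental libraries (log2 fold change -0.22, edgeR adjusted p = 1.14e-12). MARS, for methionine, had 264, 259, 268 and 266 CPM in GNAS R201C/+ libraries, against 308, 302, 308 and 299 CPM in parental libraries (log2 fold change -0.20, edgeR adjusted p = 1.36e-11). No GNAS R201C/+ library reached the lowest parental library for any of the 7 genes. The other log2 fold changes were -0.17 for NARS (asparagine), -0.14 for SARS (serine), -0.11 for AARS (alanine) and -0.08 for WARS (tryptophan), with edgeR adjusted p of 3.10e-09, 1.33e-06, 1.04e-05 and 0.00259 in that order. The summed level of the 7 was 1730 to 1750 CPM in GNAS R201C/+ and 1950 to 1970 CPM in parental libraries.

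Compared per length, as CPM per kb of annotated exons, levels spanned a wide range, and the most abundant were SLC7A5 at 175 in GNAS R201C/+ and 231 in parental libraries, ATF4 at 135 in GNAS R201C/+ and 158 in parental, and SLC38A2 at 129 in GNAS R201C/+ and 140 in parental. Among the lowest were NUPR1, at 0.0502 in GNAS R201C/+ and 0.0471 in parental libraries, ALDH1L2, at 0.229 in GNAS R201C/+ and 0.244 in parental, and ASNS, at 0.477 in GNAS R201C/+ and 0.922 in parental. The place of ASNS is uncertain, since 84.3% of its longest transcript also lies in AC079781.5 on the same strand. If reads in shared bases were left uncounted, its level per kb is too low. DDIT3, at 7 CPM per kb in GNAS R201C/+ and 8.68 in parental libraries, and CHAC1, at 2.92 in GNAS R201C/+ and 4.27 in parental, which are strongly induced under acute stress in many cells, lay in the lower part of the range. The annotated exons of SLC3A2 cover 5178 bases and its longest transcript 2222, so its level per kb, 61.6 in GNAS R201C/+ and 73.7 in parental libraries, is 144 in GNAS R201C/+ and 172 in parental when the longest transcript is the length.

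**Figure D3:**
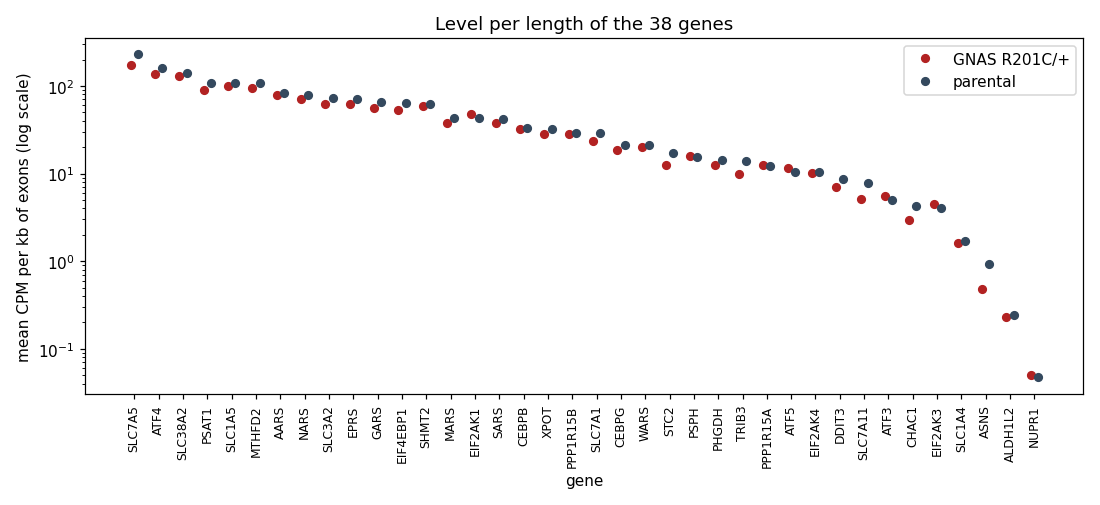
Mean CPM per kb of annotated exons for each of the 38 genes (x axis, gene, ordered by the parental level; y axis, log scale) in GNAS R201C/+ (red) and parental (dark) libraries. SLC7A5, at 175 against 231, is highest and NUPR1, at 0.0502 against 0.0471, lowest; most red points lie just below their dark partners.

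ATF4 and C/EBP dimers are known to bind the C/EBP-ATF response element, so the promoters of the 38 genes were searched for its core TGATGNAA, where N is any base, on both strands. Promoters were taken from RefSeq (GRCh38.p14) as the 250 bases before and 50 after each annotated start. Of the 38 genes 28 had an entry, and 11 of these 28, 39.3%, held the core, against 287 of 10756 tested genes with an entry, 2.67%, and 1217 of all 27305 genes in the table, 4.46%. The strict form TGATGCAA was in 7 of the 28, 25%, against 79 tested genes, 0.734%. Among the genes with an entry, the core was in 9 of 21 that fell, 1 of 3 that rose and 1 of 4 that did not pass. Many of the genes were picked as known ATF4 targets, so this share is no independent evidence, and a match is not proof of binding. The 7 promoters with the strict form follow with that of ASNS, whose element is a textbook ATF4 site, to let the flanks be compared. They are written along the gene's strand with the core in capitals, and TTGCATCA is the core read from the opposite strand.
CEBPG (chr19:33374031-33374112, plus strand): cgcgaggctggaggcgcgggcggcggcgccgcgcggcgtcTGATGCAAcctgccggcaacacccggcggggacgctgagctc
AARS (chr16:70289646-70289733, minus strand): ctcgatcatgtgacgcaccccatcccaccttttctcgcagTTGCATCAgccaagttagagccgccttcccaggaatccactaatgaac
PPP1R15B (chr1:204411997-204412067, minus strand): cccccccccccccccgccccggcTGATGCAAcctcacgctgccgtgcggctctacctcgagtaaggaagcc
SLC1A4 (chr2:64989381-64989410, plus strand): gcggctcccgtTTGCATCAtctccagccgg
CHAC1 (chr15:40953251-40953280, plus strand): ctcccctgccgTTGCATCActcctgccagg
SLC1A5 (chr19:46784893-46784922, minus strand): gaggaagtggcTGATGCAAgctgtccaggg
NARS (chr18:57621804-57621833, minus strand): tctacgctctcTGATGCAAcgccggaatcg
ASNS (chr7:97872458-97872487, minus strand): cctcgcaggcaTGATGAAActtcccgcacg

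Beside these letters, the log2 fold changes were -0.21 for CEBPG, -0.11 for AARS, -0.07 for PPP1R15B, -0.55 for CHAC1, -0.13 for SLC1A5, -0.17 for NARS and -0.95 for ASNS, and -0.09 for SLC1A4, which did not pass. SLC3A2 and SLC7A1 held another form of the core downstream of a start, and ATF3, which rose, held TGATGGAA at 191 bases before one. TRIB3, STC2 and PSAT1, which fell, held no match in these windows, which says only that these letters are not there.

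Other genes of the pathway were read from lists that the 38 genes do not overlap. The counts of each list stand beside 24.1% higher and 24% lower over all tested genes. These lists too were chosen with earlier results of these data known. Of 15 tested cytosolic tRNA synthetase and cofactor genes outside the set, 12 fell, 1 rose and 2 did not pass, with a median log2 fold change of -0.15. LARS, for leucine, was at 205 against 247 CPM and FARSB, a phenylalanine synthetase subunit, at 115 against 138 CPM in GNAS R201C/+ against parental libraries, and QARS, for glutamine, rose by 0.07 on the log2 scale. Of 15 tested mitochondrial synthetases, 8 fell, 1 rose and 6 did not pass, with a median of -0.06. MARS2 fell by 0.32 and WARS2 fell by 0.17 on the log2 scale, the WARS2 call being lost without GNAS R201C/+ replicate 4 (edgeR adjusted p = 0.0613).

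Of 14 further amino acid transporters tested, 11 fell, 0 rose and 3 did not pass, with a median log2 fold change of -0.27. DESeq2 called 0 higher too, and 0 were higher at an unadjusted edgeR p under 0.05. SLC1A3, the glutamate and aspartate transporter, had 36.3, 37.0, 31.6 and 34.4 CPM in GNAS R201C/+ libraries, against 79.8, 83.3, 81.7 and 86.2 CPM in parental libraries. It was 2.38-fold lower (log2 fold change -1.25, standard error 0.04, edgeR adjusted p = 3.36e-19), more than any of the 38 genes. SLC7A2, another cationic amino acid transporter, was at 34.7 CPM in GNAS R201C/+ and 46 CPM in parental libraries, also lower. Other amino acid and one-carbon enzymes were mixed, with 5 of 19 higher, 6 lower and 8 not passed. Their shares, 26.3% higher and 31.6% lower, were near those of all tested genes, 24.1% and 24%. ASS1, which condenses citrulline with aspartate, rose by 0.43 on the log2 scale, while the methionine synthase gene MTR fell by 0.30 and the mitochondrial folate enzyme gene MTHFD1L by 0.26.

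Of 14 genes for eIF2, its exchange factor eIF2B, the kinase EIF2AK2 and regulators of the kinases, 8 fell, 1 rose and 5 did not pass. Their median log2 fold change was -0.08. EIF2S2 fell by 0.15 and GCN1, an activator of EIF2AK4, by 0.13 on the log2 scale, and DNAJC3, an inhibitor of EIF2AK3, rose by 0.17. Other reported ATF4 targets did not share a direction: of 11 tested, 4 rose, 6 fell and 1 did not pass. DDIT4, an inhibitor of mTORC1, was at 111 ± 5.13 against 69.6 ± 3.82 CPM and the stress cytokine gene GDF15 at 172 ± 14.8 against 108 ± 4.26 CPM in GNAS R201C/+ against parental libraries, both higher (edgeR adjusted p = 1.09e-09 and 2.39e-04). CLIC4, a chloride channel family gene, was lower at 158 ± 1.46 CPM in GNAS R201C/+ and 212 ± 1.45 CPM in parental libraries, and JDP2, an AP-1 repressor gene, fell by 0.28 on the log2 scale. Of 14 tested genes of the XBP1 and ATF6 branch of the unfolded protein response, 9 rose, 0 fell and 5 did not pass, with a median of 0.10. CRELD2 and DNAJB9, both induced by unfolded proteins, rose by 0.30 and by 0.29 on the log2 scale. No gene of that list was lower with DESeq2 either, or at an unadjusted edgeR p under 0.05.

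**Figure D4:**
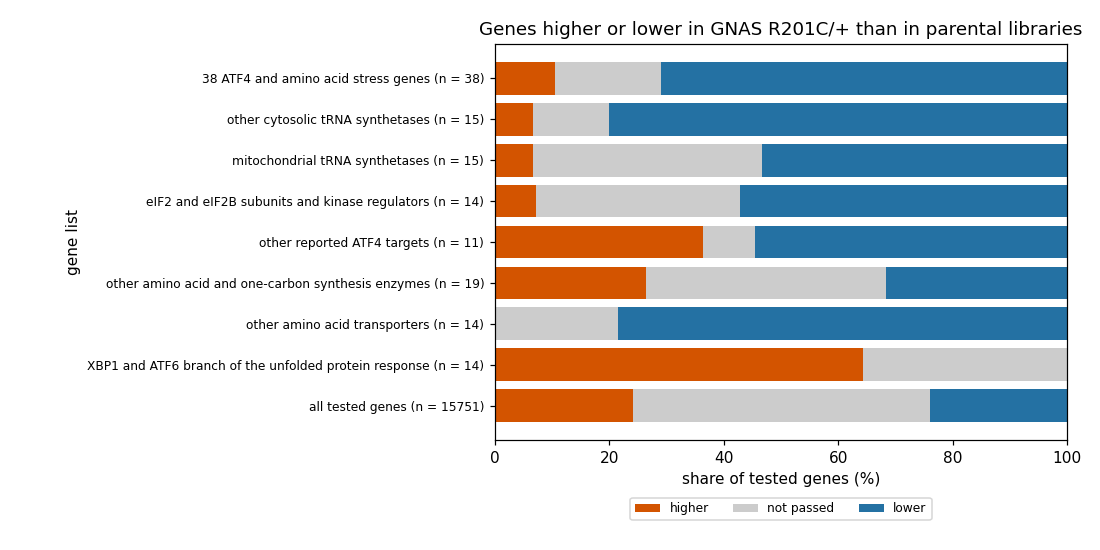
Share of tested genes higher, not passed and lower in GNAS R201C/+ relative to parental libraries (x axis, percent; y axis, gene list with its number of tested genes). The 38 genes are 71.1% lower, other amino acid transporters 78.6% lower, the XBP1 and ATF6 branch 64.3% higher, and all tested genes 24.1% higher and 24% lower.

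Of the 38 genes 15 share exonic bases with another annotated gene. Among the other 23, an alternative chosen after the values were seen, 17 fell, 1 rose and 5 did not pass, and ATF3 was the one that rose. Of all tested genes 24% were lower and 24.1% higher.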

How the data were processed

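Values are raw counts of reads per gene for 8 libraries, as deposited by the authors. The submitters' processing notes name bcl2fastq, Trimmomatic, STAR, featureCounts, DESeq2 and GRCh38.p12, without versions. Annotation release, strand setting and the handling of multiply mapped reads were not found in the labels or the table, so overlapping genes and near-identical copies are uncertain. Symbols and positions came from GENCODE 29, which matched 58457 of 60609 identifiers without version.

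Genes were kept by filterByExpr (minimum count 10, minimum total 15), scaled by TMM and tested with edgeR 4.0.16 in R 4.3.3 (robust quasi-likelihood F test, group as the only term, Benjamini-Hochberg over all 15751 genes, called under 0.05). Standard errors are the absolute log2 fold change over the square root of F. CPM use TMM-adjusted library sizes, and mean ± SD covers 4 libraries. Fold changes are GNAS R201C/+ over parental. Alternatives were DESeq2 1.42.0, limma-voom (limma 3.58.1), other scalings and filters, a 1.5-fold test, a replicate block and leaving out each library. The fits were tested on simulated counts. No pair of libraries of a group agreed within counting noise.

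The members and lists were chosen with earlier results of these data known. All members are named; from each other list the rule takes up to 2 called genes per direction with the largest change and at least 5 CPM, or, where none was called, the 2 most abundant. Some genes that this rule takes are not reported here.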

Additional observations from a re-analysis of the deposited data

Results flagged for a closer look

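Each of the 38 genes was checked within each group of 4 libraries for a library set apart from the other 3, and 2 of 76 groups had one. Chance gives about 1 in 20. ATF3 in parental replicate 3 was at 19.7 CPM, with the other parental libraries all at 20.4 CPM. Without that library the log2 fold change was 0.14 (edgeR adjusted p = 0.00550), so the call that ATF3 rose was kept. PPP1R15A in GNAS R201C/+ replicate 1 was at 36.5 CPM, with the other GNAS R201C/+ libraries at 38.6 to 38.9 CPM. Without it the log2 fold change was 0.03 and the gene still did not pass (edgeR adjusted p = 0.523).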

How the results depend on the processing

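Of the 31 called members, 30 kept their call in the 16 alternatives other than the 1.5-fold test, with a highest adjusted p of 0.0412, and PPP1R15B lost it in 3. No called member changed sign. PSPH passed as higher without GNAS R201C/+ replicate 2 (adjusted p = 0.0427). Leaving out each library gave 4 to 5 members higher, 26 to 27 lower and 6905 to 7442 of all tested genes called. DESeq2 called 6633 genes, against 7577 with edgeR. Against a 1.5-fold change edgeR called 256 genes, 0 members higher, 1 member lower (ASNS) and 1 gene of the other lists (SLC1A3), since the test asks for a larger change. Among members sharing no exonic bases, chosen after seeing the data, 1 was higher and 17 lower, out of fewer genes. The exact motif was in 7 promoters against 11, and with the longest transcript as length the median member level in GNAS R201C/+ libraries was 32.4 against 25.8 CPM per kb. Without 1 library, members that did not pass ranged in log2 fold change from -0.0357 to 0.0078 for CEBPB, -0.173 to 0.277 for NUPR1 and -0.0129 to 0.0286 for PPP1R15A, so they have no fixed direction. Same-numbered libraries did not deviate together (correlations -0.047, 0.0538, -0.0288 and -0.0362, against -0.0992 to 0.0936 for differently numbered libraries). No pairing by number was detected, but this cannot exclude that same-numbered libraries were handled together. The replicate block gave 7413 genes called, 4 members higher, 27 lower and 76 list genes against 79. NUPR1, at 0.285 CPM in GNAS R201C/+ libraries, is limited by depth.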

Other observations

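Several genes of the other lists were listed at 0 in all 8 libraries. Among them were the valine synthetase gene VARS, which dividing cells are known to use, and the mitochondrial synthetase genes SARS2 and VARS2. The proline synthesis gene PYCR3, the sensor gene ATF6B and the ATF4 targets SESN2, VLDLR and TXNIP were at 0 too. The chaperone gene HYOU1 had 1 read in 1 library. These values do not show that the genes were silent, and the lists they belong to were counted without them. CARS, the cysteine synthetase gene, was at 1.96 ± 0.199 CPM in GNAS R201C/+ and 2.26 ± 0.369 CPM in parental libraries, while every other tested cytosolic synthetase or cofactor gene averaged at least 23.2 CPM in GNAS R201C/+ libraries.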
